A study of Mus musculus with 8 samples.

Results

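Brwd1, Morc3, Setd4 and Chaf1b are 4 genes for chromatin proteins that lie within the duplicated segment of chromosome 16 in Dp1Tyb mice, so that Dp1Tyb cells carry 3 copies of each where wild-type (WT) cells carry 2. They were followed here together with 5 relatives or partners outside the duplicated segment, called 2-copy genes below. These were Brwd3 and Phip for Brwd1, Morc2a for Morc3, and Chaf1a and Rbbp4 for Chaf1b. Brwd3 lies on the X chromosome, so that cells of a male embryo hold a single copy of it. The sex of the embryos is not given in the sources used here. The 9 genes were chosen by symbol, through their Ensembl identifiers, from the 19493 endogenous genes of the count table, and all 9 were among the 16470 genes expressed enough to be tested. The segment, bounded by Lipi and Zbtb21, held 112 tested genes.

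RNAseq had been carried out on mouse embryonic fibroblasts (MEFs), cells grown from E14.5 embryos, in 4 WT and 4 Dp1Tyb libraries. Dp1Tyb embryos carried the Dp(16Lipi-Zbtb21)1TybEmcf duplication and WT littermates did not, and both genotypes shared the C57BL/6J.129P2 strain label. No treatment is named other than trypsin, used on the minced embryos and to take the cells off the plates. Head and viscera had been removed before the cells were grown, and the cells were not sorted, so a culture can hold other cell types of the embryo. ERCC spike-ins, synthetic RNAs of known concentration, were put into the Trizol suspension in equal amount for equal numbers of MEFs. The labels do not state that each library came from its own embryo, and where libraries share one, the p values below cover only the spread between these samples.

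The proteins act at different steps of chromatin regulation. BRWD1, BRWD3 and PHIP form a family with WD repeats and bromodomains, modules that bind acetylated histone tails, and members of the family serve as substrate receptors of the CUL4-DDB1 ubiquitin ligase. MORC3 and MORC2A are ATPases that compact or silence chromatin, MORC3 in nuclear bodies with PML and MORC2A with the HUSH silencing complex. SETD4 belongs to the SET-domain lysine methyltransferases. CHAF1A, CHAF1B and RBBP4 are the large, middle and small subunits of CAF-1, the chaperone that places new histones on DNA behind the replication fork, and RBBP4 also serves in several other chromatin complexes. Genes of DNA synthesis, many of them under E2F transcription factors, are known to be expressed mainly in dividing cells.

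The 4 duplicated genes occupy 2 places in the segment (GRCm38, GENCODE M21). Setd4 lies at 93583457 to 93604063 of chromosome 16 on the minus strand, and Morc3 follows 228 kb further at 93832121 to 93876073 on the plus strand. Chaf1b, at 93883901 to 93906115 on the same strand, starts only 7828 bp after the end of Morc3. Brwd1 lies 2.09 Mb beyond Chaf1b, at 95992092 to 96082526 on the minus strand. The 2-copy genes are spread over chromosomes X (Brwd3), 9 (Phip), 11 (Morc2a), 17 (Chaf1a) and 4 (Rbbp4).

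The promoters of the 3 CAF-1 subunits are shown because Chaf1a and Chaf1b mRNA levels moved with those of DNA synthesis genes across the libraries, as described further on. Each is given as 300 bases, from 250 before to 50 after the RefSeq start on GRCm38.p6, read along the gene's own strand. Capitals mark the E2F-type letters searched on either strand, which were TTCCCGC and, as variants, TTGGCGC with TTCGCGC and also TTGCCGC.
Chaf1b, chr16:93883651-93883950, plus strand: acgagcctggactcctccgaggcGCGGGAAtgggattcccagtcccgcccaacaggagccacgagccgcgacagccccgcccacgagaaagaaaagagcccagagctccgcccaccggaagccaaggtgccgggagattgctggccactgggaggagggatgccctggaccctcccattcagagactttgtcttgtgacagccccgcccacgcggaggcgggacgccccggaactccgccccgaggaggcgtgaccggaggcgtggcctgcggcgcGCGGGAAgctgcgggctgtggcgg
Chaf1a, chr17:56040166-56040465, plus strand: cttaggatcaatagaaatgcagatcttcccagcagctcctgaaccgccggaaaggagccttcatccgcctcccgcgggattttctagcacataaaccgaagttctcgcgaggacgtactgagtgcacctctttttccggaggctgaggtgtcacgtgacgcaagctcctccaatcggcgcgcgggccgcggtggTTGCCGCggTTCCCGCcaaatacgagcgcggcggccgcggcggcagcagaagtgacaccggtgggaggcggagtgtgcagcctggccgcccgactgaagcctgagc
Rbbp4, chr4:129335321-129335620, minus strand: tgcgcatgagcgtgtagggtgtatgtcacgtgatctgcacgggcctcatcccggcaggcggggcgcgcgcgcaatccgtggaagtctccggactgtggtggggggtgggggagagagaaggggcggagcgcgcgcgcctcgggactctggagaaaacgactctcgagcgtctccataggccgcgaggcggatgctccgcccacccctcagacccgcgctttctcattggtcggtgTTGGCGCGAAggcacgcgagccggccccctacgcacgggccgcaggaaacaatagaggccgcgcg

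Chaf1b held these letters 2 times, both on the reverse strand, beginning 227 bases before and 27 bases after the start. Chaf1a held 2 matches, 56 and 47 bases before the start, and in Rbbp4 2 matches on opposite strands overlapped, 15 and 12 bases before the start. Of the 9 genes, 6 held at least 1 match, namely those 3 with Morc3, Phip and Morc2a, while Brwd1, Setd4 and Brwd3 held none. Among all 32851 mouse promoters of the same length in the RefSeq table, 9.57% held a match. The searched letters are rich in G and C, which made up 52.7% (Morc3) to 80.0% (Brwd1) of the promoters of the 9 genes. The median over all promoters was 52.7%, so that share does not come from promoters of like composition. The RefSeq starts of Morc2a and Setd4 lay 246 and 248 bp inside the GENCODE gene, so their windows fell almost wholly within the gene. The GC box GGGCGG, another common promoter motif, occurred in 35.7% of those promoters on either strand, and in every one of the 9 genes apart from Setd4. A match describes letters only, and binding of a factor was not measured here.

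Per length, the 9 mRNAs covered a wide range of levels in WT MEFs. In RPKM after relative scaling (read counts divided by exon length and by library size), Rbbp4 was highest at 20.6 ± 1.97 (SD, n = 4), followed by Morc2a at 15.6 ± 0.916 and Morc3 at 9.93 ± 0.843. Brwd1 stood at 7.86 ± 0.408, Phip at 6.54 ± 1.02 and Chaf1b at 5.20 ± 1.99. The lowest were Chaf1a at 3.17 ± 1.15, Brwd3 at 2.84 ± 0.322 and Setd4 at 0.810 ± 0.143. WT libraries overlapped between the neighbours Brwd1 and Phip, Phip and Chaf1b, Chaf1b and Chaf1a, and Chaf1a and Brwd3, while the other neighbours in the order were separated in every WT library. The exon length used for Phip, 33312 bases, is the union over its annotated transcripts and lowers its RPKM where long ends are little used.

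Library depth ran from 17698900 to 26471758 counts, of which 0.882 to 1.65% were spike-ins. Counts were compared between genotypes in 2 ways. Relative scaling (TMM over endogenous genes) measures a gene's share of the mRNA, and spike-in scaling measures its level per cell. Endogenous RNA per spike-in varied from 0.713 to 1.19 in WT and from 0.688 to 1.31 in Dp1Tyb, in units of the geometric mean of all libraries, and this spread enters each spike-in scaled value. The SE of the log2 fold change of every one of the 9 genes but Chaf1b was larger under spike-in scaling, 0.32 to 0.41 against 0.08 to 0.31 under relative scaling.

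Under relative scaling, Brwd1 mRNA in each Dp1Tyb library exceeded that of each WT library. WT replicates 1 to 4 held 3535, 3412, 3220 and 3160 normalised reads of Brwd1, and the Dp1Tyb replicates, in the same order, 4701, 4477, 4489 and 4516. The Dp1Tyb libraries lay close together, with a CV of 2.30%, and the gap between the groups was wider than the range within either. The fold change was 1.36 (95% interval 1.20 to 1.55), a log2 fold change of 0.45 ± 0.08 (SE). The p from edgeR's quasi-likelihood test was 0.000341, which became 0.228 after Benjamini-Hochberg adjustment over all tested genes. In DESeq2 the adjusted p was 7.28e-05.

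With spike-in scaling the same gene ranged from 2296 to 4193 normalised counts in WT and from 3078 to 5935 in Dp1Tyb, and the groups overlapped. Only Dp1Tyb replicate 2, at 3078, fell within the WT range. The fold change was 1.47 (95% interval 0.956 to 2.26), with an edgeR p of 0.0796 before and 1.00 after adjustment.

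Brwd3 and Phip, the 2-copy relatives, did not share this difference. Under relative scaling Brwd3 counted 875.7, 740.1, 722.5 and 677.5 in WT (replicates 1 to 4, here and below) against 864.5, 660.5, 728.0 and 697.2 in Dp1Tyb, with a fold change of 0.979 (95% interval 0.807 to 1.19; edgeR adjusted p = 0.999). The 2 groups covered nearly the same range. Phip counted 5587, 4431, 4166 and 4029 in WT and 3780, 3996, 3928 and 3324 in Dp1Tyb. Every Dp1Tyb library was below every WT library for Phip, by a fold change of 0.825 (95% interval 0.681 to 0.999), with an edgeR p of 0.0495 before and 0.999 after adjustment. This separation was absent under spike-in scaling (fold change 0.867, 95% interval 0.564 to 1.33, edgeR adjusted p = 1.00). Without WT replicate 1, the highest library, the log2 fold change of Phip went from -0.28 to -0.16 under relative scaling with an edgeR p of 0.141 and from -0.21 to 0.04 under spike-in scaling.

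Morc3 showed the same separation as Brwd1 under relative scaling. WT replicates 1 to 4 had 1084, 1013, 1193 and 1218 normalised counts, and Dp1Tyb replicates 1 to 4 had 1924, 1730, 1462 and 1557. Each Dp1Tyb library exceeded each WT library, though the Dp1Tyb libraries were more spread out than for Brwd1, with a CV of 12.2%. The fold change was 1.48 (95% interval 1.24 to 1.77), with an edgeR p of 0.000604 before and 0.330 after adjustment. DESeq2 gave an adjusted p of 0.0130. With spike-in scaling Morc3 had the largest fold change of the 9 genes, 1.59 (95% interval 1.03 to 2.45), with an edgeR p of 0.0352 before and 1.00 after adjustment. There Dp1Tyb replicate 2, at 1189 normalised counts, fell within the WT range of 850.6 to 1424, and the other Dp1Tyb libraries, from 1539 to 2317, lay above it.

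Morc2a, which is encoded on chromosome 11, was at similar levels in both genotypes. It had 1965, 2251, 2041 and 2128 normalised counts in WT and 2306, 2126, 2141 and 2059 in Dp1Tyb under relative scaling, and the ranges overlapped over most of their width. Its fold change was 1.03 (95% interval 0.899 to 1.18; edgeR adjusted p = 0.999), the narrowest interval among the 2-copy genes. Of the bases of its transcripts taken in runs of 100, 5.89% also occur in transcripts of Tug1, a long non-coding RNA on the opposite strand. The strand option of the counting is not stated, so reads of that stretch cannot be assigned with certainty.

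Setd4 was barely expressed. Raw counts ran from 75 to 122 per library, a depth at which counting error alone gives a CV of 10.1%. With relative scaling the WT libraries had 113.9, 86.86, 87.10 and 76.06 normalised counts and the Dp1Tyb libraries 94.53, 110.9, 97.69 and 114.2. WT replicate 1 lay in the upper part of the Dp1Tyb range, and the other 3 WT libraries were below all Dp1Tyb libraries. The fold change was 1.14 (95% interval 0.867 to 1.51, which holds both 1 and 1.5), and the edgeR p was 0.303 before and 0.999 after adjustment. Without WT replicate 1 the log2 fold change of 0.19 became 0.33, with an edgeR p of 0.0855, and without WT replicate 4 it became 0.12, with an edgeR p of 0.539. Spike-in scaling gave a fold change of 1.22 (95% interval 0.700 to 2.13; edgeR adjusted p = 1.00).

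Chaf1b varied most between libraries of one genotype. In relative-scaled counts it reached 322.1, 783.5, 468.2 and 462.5 in the WT libraries and 239.2, 995.6, 892.6 and 792.2 in the Dp1Tyb libraries. Replicates 2 to 4 of Dp1Tyb lay above every WT library, and Dp1Tyb replicate 1 lay below every one of them. The CV was 38.3% in WT and 46.2% in Dp1Tyb, where counting error alone gives a CV of 4.08%. The fold change of 1.43 had a 95% interval of 0.768 to 2.66, with an edgeR p of 0.228 before and 0.999 after adjustment. Without Dp1Tyb replicate 1 the log2 fold change of 0.52 became 0.81, and without WT replicate 2, the highest of its group, it became 0.82, with edgeR p values of 0.0105 and 0.0778 and adjusted p values of 0.790 and 0.863. In the other direction it became 0.33 without Dp1Tyb replicate 2 and 0.35 without WT replicate 1, with edgeR p values of 0.469 and 0.431. With spike-in scaling the fold change was 1.51 (95% interval 0.971 to 2.36), with an edgeR p of 0.0673 before and 1.00 after adjustment. The SE of the log2 fold change was 0.33 there in edgeR, and 0.38 in DESeq2 with an unadjusted p of 0.115.

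The other CAF-1 subunits had fold changes near 1 under both scalings. Under relative scaling Chaf1a counted 444.4, 902.3, 472.1 and 524.3 in WT against 278.7, 720.8, 630.4 and 513.3 in Dp1Tyb, a fold change of 0.913 (95% interval 0.568 to 1.47; edgeR adjusted p = 0.999). Its log2 fold change of -0.13 turned to 0.17 without WT replicate 2 and to 0.08 without Dp1Tyb replicate 1. Its highest WT library and its lowest Dp1Tyb library were the same ones as for Chaf1b. Rbbp4 was far steadier, at 3326, 4048, 3591 and 4057 in WT and 3187, 4107, 3450 and 3814 in Dp1Tyb, with a fold change of 0.969 (95% interval 0.813 to 1.15; edgeR adjusted p = 0.999). Under spike-in scaling the fold changes were 0.954 for Chaf1a and 1.03 for Rbbp4 (edgeR adjusted p = 1.00 for both). For Chaf1a, 46.7% of its 100-base runs also occur in transcripts of Ubxn6, which overlaps it by 5245 bp on the opposite strand, and for Rbbp4 1287 of 8871 such runs are shared with Gm26722 and 1 other gene. Since the strand option is not stated, the counts, RPKM and ratios of Chaf1a and Rbbp4 carry the same uncertainty as those of Morc2a. Ubxn6 itself had a relative log2 fold change of 0.03 ± 0.12 (SE; edgeR adjusted p = 0.999).

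**Figure D1:**
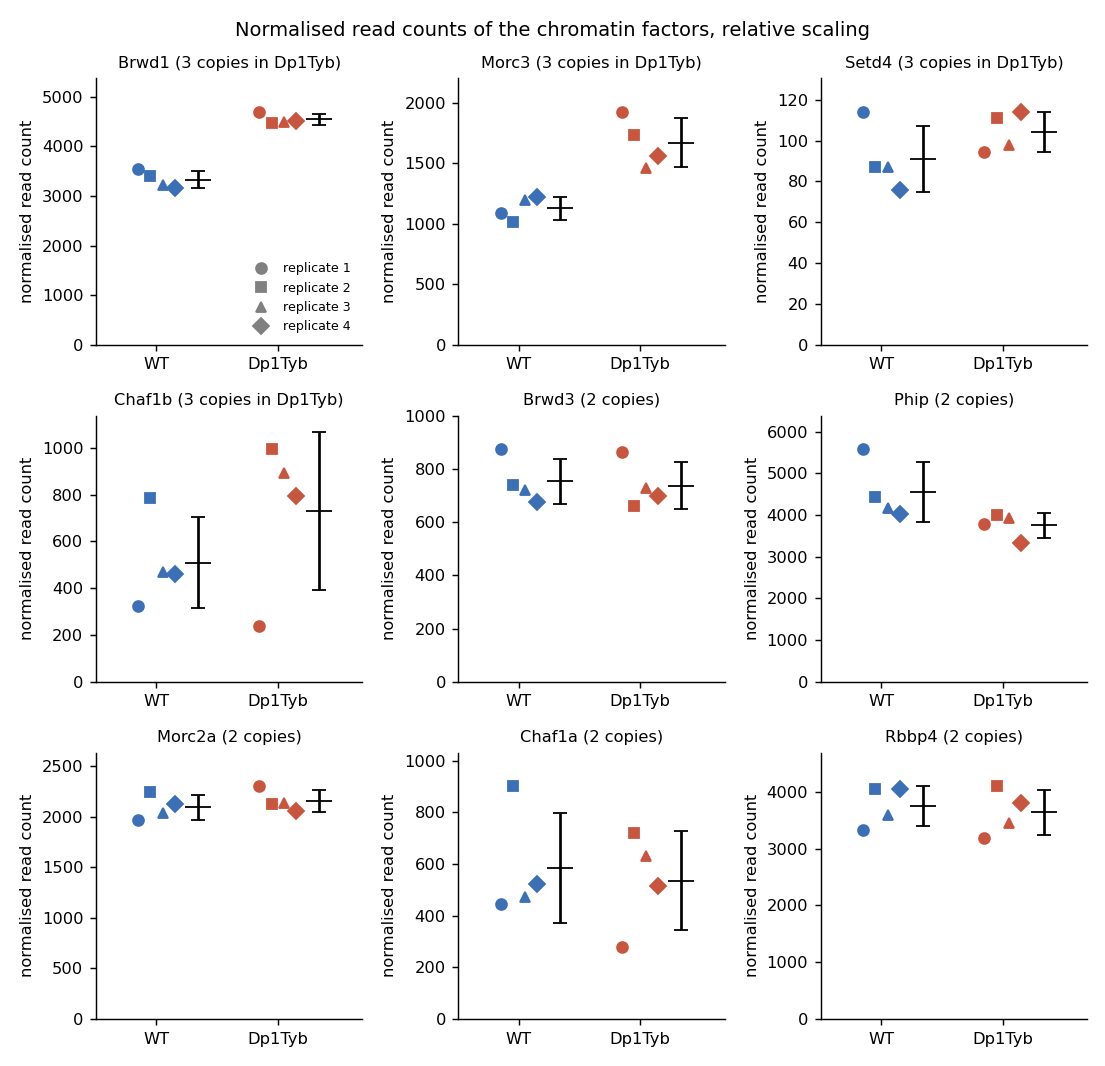
Normalised read counts (vertical axes, starting at 0, relative scaling) of the 9 genes in each of the 4 WT and 4 Dp1Tyb libraries, with marker shape giving the replicate number and bars the mean ± SD. Brwd1 and Morc3 are separated between genotypes, while Chaf1b and Chaf1a run from 239.2 to 995.6 and from 278.7 to 902.3 over all libraries.

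Reading the 9 genes together, none passed an adjusted p of 0.05 in edgeR under either scaling. Over all tested genes this test called 3 (0.0182%) under relative scaling, and under spike-in scaling 2 (0.0121%), each of them higher in Dp1Tyb. In DESeq2 with relative scaling Brwd1 and Morc3 were called, where 0.267% of the tested genes were called higher and 0.0546% lower. At an unadjusted p under 0.05 under relative scaling, Brwd1 and Morc3 were higher, against 1.74% of tested genes, and Phip was lower, against 2.53%. With spike-in scaling Morc3 alone reached this level, against 0.850% of the tested genes on the higher side and 0.316% on the lower.

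Complete separation of the libraries gave a similar account. Under relative scaling every Dp1Tyb library was above every WT library for 2 of the 4 duplicated genes and for none of the 5 others, where 1.64% of all tested genes and 42.0% of the tested genes in the duplicated segment showed this. Phip was the only one of the 9 with every Dp1Tyb library below, as were 1.52% of tested genes. Under spike-in scaling none of the 9 was separated in either direction, against 0.285% of all tested genes above, 0.140% below, and 14.3% of those in the segment above.

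The ratio of 3 to 2 copies, 1.5, lay within the 95% interval of each of the 4 duplicated genes under both scalings. Under relative scaling it lay outside the interval of all 5 of the 2-copy genes. Under spike-in scaling the wider intervals of Brwd3, Morc2a and Rbbp4 held both 1 and 1.5. The median log2 fold change was 0.48 for the 4 duplicated genes and -0.05 for the 5 others under relative scaling, and 0.58 and 0.05 under spike-in scaling, beside 0.01 and 0.11 over all tested genes. Among the 112 tested genes of the segment, whose median was 0.54 (quartiles 0.25 and 0.71) under relative scaling, Morc3 ranked 54, Chaf1b 58, Brwd1 66 and Setd4 91 from the highest fold change. The ranks were 52, 64, 70 and 94 with spike-in scaling.

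**Figure D2:**
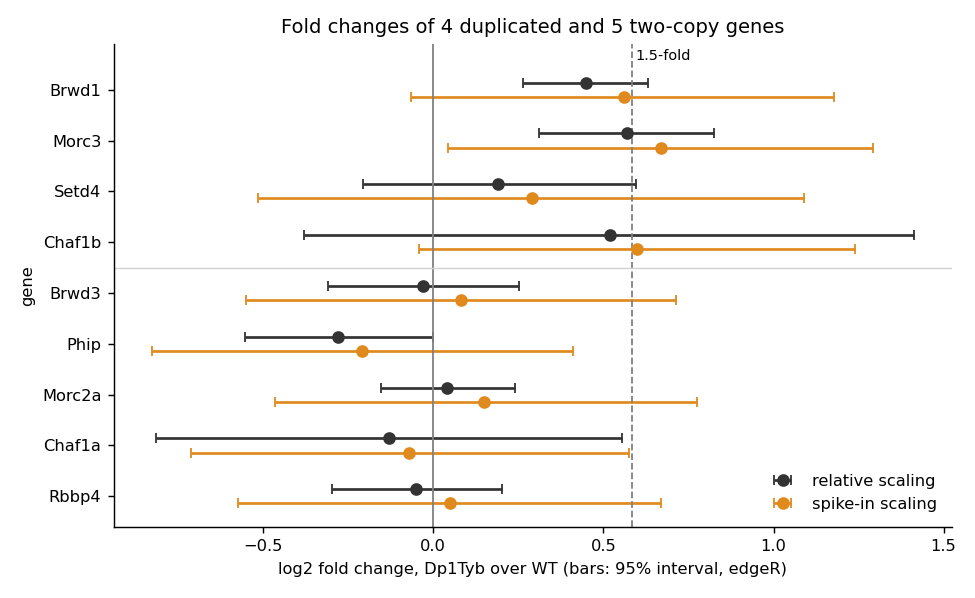
Log2 fold change of Dp1Tyb over WT (horizontal axis) for the 4 duplicated genes above the grey line and the 5 genes outside the duplicated segment below it, with 95% intervals from edgeR under relative scaling (black) and spike-in scaling (orange). The dashed line marks 1.5-fold, which the black intervals of Brwd1, Morc3, Setd4 and Chaf1b reach and those of the other 5 genes do not.

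To set Brwd1, Morc3 and Chaf1b against their 2-copy relatives without any scaling, log2 ratios of counts were taken within each library. No relative was chosen for Setd4, which has no ratio. Ratios of raw counts do not compare the levels of the 2 genes, which have different lengths, but differences of a ratio between genotypes are free of library scaling. For Brwd1 to Brwd3 the WT libraries had log2 ratios of 2.01, 2.20, 2.16 and 2.22, and the Dp1Tyb libraries 2.44, 2.76, 2.62 and 2.69. It rose by 0.48, which is 1.40-fold, and the groups did not overlap. The log2 ratio of Brwd1 to Phip was -0.66, -0.38, -0.37 and -0.35 in WT and 0.31, 0.16, 0.19 and 0.44 in Dp1Tyb. It rose by 0.72, or 1.65-fold, the largest shift of the 5 ratios, again without overlap. Both genes enter this shift, with relative log2 fold changes of 0.45 for Brwd1 and -0.28 for Phip. In WT libraries Brwd1 thus had fewer counts than Phip, and in Dp1Tyb libraries more.

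Morc3 to Morc2a gave log2 ratios of -0.86, -1.15, -0.77 and -0.80 in WT and -0.26, -0.30, -0.55 and -0.40 in Dp1Tyb, a rise of 0.52 or 1.43-fold without overlap. Each of these 3 ratios had a p of 0.0286 in a two-sided exact permutation test, the smallest that 4 against 4 libraries allow, and 0.0476 after Benjamini-Hochberg adjustment over the 5 ratios. All 4 Dp1Tyb libraries exceeded all WT libraries in each of the 3. Without WT replicate 1 the difference for Brwd1 to Brwd3 was 0.44 and its exact permutation p 0.0571, so that it no longer passed, while the other ratios of this trio kept a p of 0.0286 without any single library. Brwd1 enters 2 of the ratios, so these are not independent of one another.

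The ratios of Chaf1b behaved differently. Chaf1b to Chaf1a stood at -0.46, -0.20, -0.01 and -0.18 in WT and at -0.22, 0.47, 0.50 and 0.63 in Dp1Tyb on the log2 scale. Dp1Tyb replicate 1 overlapped WT and the other 3 lay above, and the difference of 0.56, or 1.47-fold, did not pass the exact permutation test (p = 0.114, adjusted p = 0.143). Leaving that library out moved the difference to 0.75 with an exact permutation p of 0.0286, while without any other single library it was 0.46 to 0.63, with exact permutation p values of 0.114 to 0.200. For Chaf1b to Rbbp4 the log2 ratio ranged from -3.37 to -2.37 in WT and from -3.73 to -1.95 in Dp1Tyb, and the difference of 0.45 lay within the spread between replicates (exact permutation p = 0.371, adjusted p = 0.371). It became 0.86 without Dp1Tyb replicate 1 (exact permutation p = 0.0571), 0.27 without Dp1Tyb replicate 3 and 0.30 without Dp1Tyb replicate 2, with exact permutation p values of 0.600 and 0.571.

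Expressed per length, and with the counting of Chaf1a uncertain where it overlaps Ubxn6, the balance of CAF-1 subunit mRNAs was 0.618 ± 0.0817 Chaf1a for each Chaf1b in WT and 0.429 ± 0.126 in Dp1Tyb (ratio of RPKM, SD, n = 4 each). For Rbbp4 the same quantity was 4.27 ± 1.16 in WT and 3.50 ± 2.43 in Dp1Tyb. That Dp1Tyb mean was raised by replicate 1, where Chaf1b had an RPKM of 2.45, beside 8.1 to 10.2 in the other Dp1Tyb libraries. Brwd3 had 0.361 ± 0.0243 of the RPKM of Brwd1 in WT and 0.259 ± 0.0252 in Dp1Tyb, and Morc2a had 1.58 ± 0.200 and 1.10 ± 0.101 of that of Morc3.

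**Figure D3:**
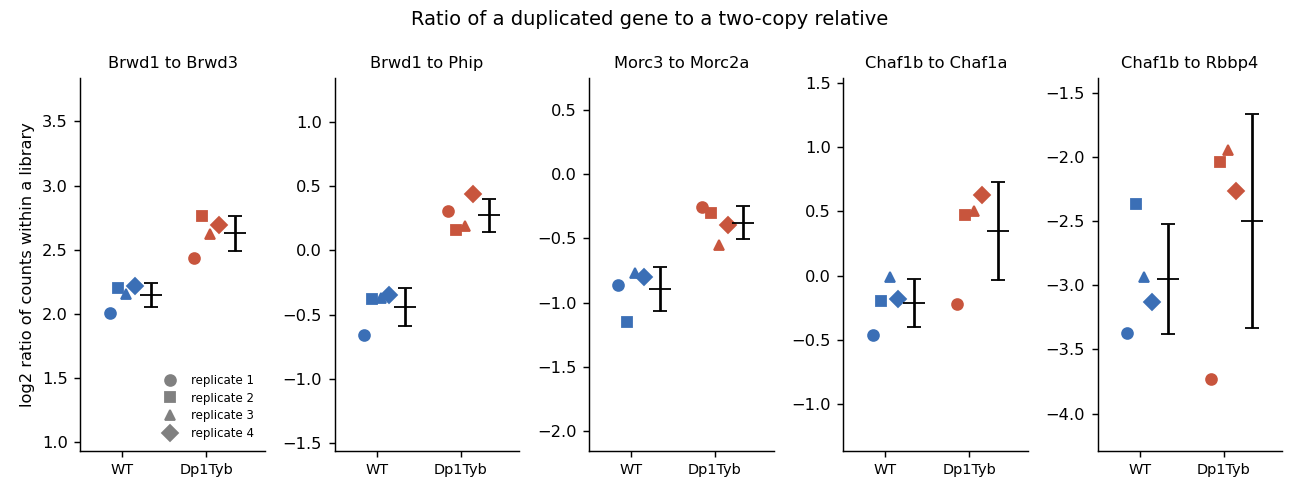
Log2 ratio of raw counts within each library (vertical axes, all spanning the same number of log2 units) of a duplicated gene to a 2-copy relative, for 4 WT and 4 Dp1Tyb libraries, with marker shape giving the replicate number and bars the mean ± SD. Brwd1 to Brwd3, Brwd1 to Phip and Morc3 to Morc2a are separated between genotypes, and Dp1Tyb replicate 1 lies within or below WT in both ratios of Chaf1b.

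The spread of Chaf1b and Chaf1a between libraries went along with genes of DNA synthesis and proliferation. A list of 39 such genes, among them the MCM helicase subunits, the clamp Pcna and the proliferation marker Mki67, had a mean log2 CPM of 4.57, 5.45, 4.75 and 4.74 in the WT libraries and 3.93, 5.44, 5.13 and 4.79 in the Dp1Tyb libraries. The level was lowest in Dp1Tyb replicate 1 and highest in replicate 2 of each genotype, as was that of Chaf1a. Epithelial and skeletal muscle markers also differed between these libraries. Relative to the mean of all libraries, the mean log2 CPM of 3 epithelial markers was -1.18 in Dp1Tyb replicate 1, 1.02 in WT replicate 2 and 0.50 in Dp1Tyb replicate 2. That of 4 skeletal muscle markers was -1.57, 0.48 and 1.05 in the same libraries. Markers of the other cell types did not follow this order. Endothelial markers had -0.02, 0.46 and -0.43, macrophage markers -0.01, 0.25 and -0.32, and neural markers -0.25, -0.29 and -0.24. The 1 tested erythroid marker had 0.28, -0.15 and -1.13. The part of these cells in the levels of Chaf1a and Chaf1b was not tested. Neither Chaf1a, Chaf1b nor Rbbp4 is in this list.

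Over the 8 libraries, Chaf1a and this mean had a Pearson r of 0.98 (exact permutation p = 9.92e-05) and a Spearman rho of 0.93 (exact permutation p = 0.00223). After Benjamini-Hochberg adjustment over the 9 genes these p values were 0.000893 and 0.0201. For Chaf1b r was 0.90 (exact permutation p = 0.000769, adjusted p = 0.00346) and rho 0.86 (exact permutation p = 0.0107, adjusted p = 0.0481). The relation held in both genotypes, with r of 0.99 in WT and 1.00 in Dp1Tyb for Chaf1a and 0.96 in each for Chaf1b, as descriptions over 4 libraries. Leaving out WT replicate 2 and Dp1Tyb replicate 1, the libraries farthest from the median of the list, gave r of 0.98 for Chaf1a and 0.86 for Chaf1b over 6 libraries. The share of all tested genes that follow the list as closely is not given here. These r values therefore cannot be read as particular to Chaf1a and Chaf1b.

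Rbbp4 followed less closely, with r of 0.74 (exact permutation p = 0.0323, adjusted p = 0.0969), rho of 0.64 (exact permutation p = 0.0962, adjusted p = 0.289) and r of 0.45 without those 2 libraries. Within genotypes its r was 0.67 in WT and 0.81 in Dp1Tyb, over 4 libraries each. None of the other 6 genes had an adjusted exact permutation p under 0.05, and the smallest was 0.160 for Brwd3, whose r was -0.67. For Brwd1 and Morc3 r was -0.12 and -0.32 over all libraries, with exact permutation p values of 0.779 and 0.450. Without those 2 libraries, which leaves 3 of each genotype, r became 0.67 and 0.85. Within genotypes, over 4 libraries each, it was 0.11 in WT and -0.97 in Dp1Tyb for Brwd1, and -0.66 and -0.61 for Morc3, so the sign of r depended on which libraries entered.

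At similar levels of the list, Chaf1b was higher in Dp1Tyb than in WT libraries. WT replicate 2 and Dp1Tyb replicate 2, at 5.45 and 5.44, had 783.5 and 995.6 normalised counts of Chaf1b, and WT replicate 4 and Dp1Tyb replicate 4, at 4.74 and 4.79, had 462.5 and 792.2. When the mean of the list was added to the edgeR model as a covariate, a step chosen after seeing the data, the SE of the Chaf1b log2 fold change went from 0.40 to 0.14 while the fold change itself stayed near the former value, at 0.50. Its edgeR p was 0.00550 before and 0.339 after adjustment over all tested genes. In that model Brwd1 and Morc3 had log2 fold changes of 0.45 ± 0.07 and 0.55 ± 0.09 (SE) with adjusted p values of 0.0557 and 0.0617, and Chaf1a had -0.10 ± 0.09 (SE) with an adjusted p of 0.750. In bulk RNA the share of dividing cells and the amount of RNA per dividing cell cannot be told apart.

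**Figure D4:**
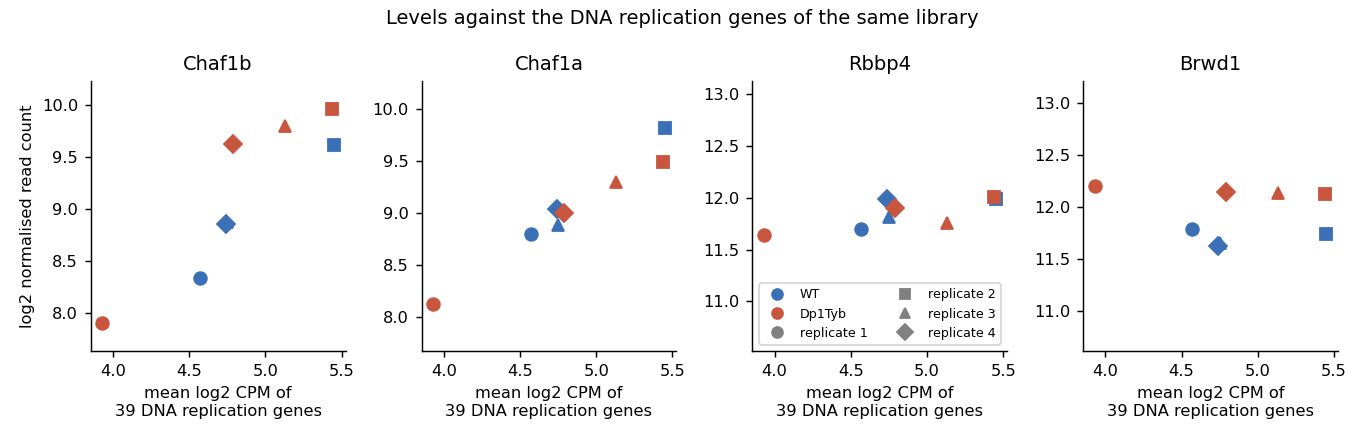
Log2 normalised read count (vertical axes, relative scaling) of Chaf1b, Chaf1a, Rbbp4 and Brwd1 against the mean log2 CPM of 39 DNA synthesis and proliferation genes in the same library (horizontal axes), for 4 WT (blue) and 4 Dp1Tyb (red) libraries. Chaf1a forms a single line (r = 0.98), Chaf1b is higher in Dp1Tyb at similar levels of the list, Brwd1 shows 2 level groups (r = -0.12), and WT replicate 3 lies largely behind WT replicate 4.

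After the mean of each genotype was removed, residual log2 levels of Chaf1b correlated at 0.96 with Chaf1a and 0.77 with Rbbp4, those of Brwd1 at 0.85 with Brwd3 and 0.71 with Phip, and those of Morc3 at 0.23 with Morc2a. Values of the same size occurred with the opposite sign in pairs from different families, such as -0.88 for Brwd3 with Rbbp4 and -0.79 for Chaf1b with Brwd3. These are descriptions over 8 libraries that share the same scaling. By the same measure over all other tested genes, those most like Chaf1b were Dtl (r = 0.999), which encodes a substrate receptor of the CUL4-DDB1 ligase in S phase, Zfp9 (0.998) and Tubb3 (0.997). Most like Morc3 were Gpx4 (0.995), Mrpl35 (0.988) and Zcchc17 (0.986), and most like Brwd1 were Mthfsd (0.984), Lyl1 (0.979) and F11r (0.979). For Setd4 they were the gene with identifier ENSMUSG00000090286 (0.972), Cldn1 (0.957) and 2900005J15Rik (0.951). Each set is the top 3 of 16469 genes over 8 libraries.

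Of the 6 nearest tested neighbours of the duplicated genes, 4 had every Dp1Tyb library above every WT library under relative scaling, as did 42.0% of the tested genes in the segment and 1.64% of all tested genes. Next to Brwd1, Psmg1, a proteasome assembly chaperone gene 1132 bp away, had a log2 fold change of 0.62 ± 0.11 under relative scaling and 0.72 ± 0.34 under spike-in scaling (SE). On the other side Hmgn1, for a nucleosome-binding protein 38092 bp away, had 0.71 ± 0.12 and 0.80 ± 0.32. Libraries of both genes were separated between genotypes under both scalings, unlike those of Brwd1.

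Cbr1, the carbonyl reductase gene 1790 bp from Setd4, had log2 fold changes of 0.75 ± 0.12 and 0.85 ± 0.34 (SE) and was separated under both scalings, whereas Setd4 was separated under neither. Runx1, the nearest tested gene on its other side at 757308 bp, had 0.33 ± 0.28 under relative scaling and overlapped. Dop1b, 21531 bp from Morc3, had 0.53 ± 0.10 under relative scaling, with separated libraries, and Sim2, 178816 bp beyond Chaf1b, had 0.23 ± 0.35 with overlap. Of these 6 neighbours none passed an adjusted p of 0.05 in edgeR, with adjusted p values of 0.164 for Hmgn1 and Cbr1, 0.228 for Psmg1 and Dop1b, and 0.999 for Runx1 and Sim2 under relative scaling. Gm15342, which overlaps Brwd1 by 2654 bp on the opposite strand, had 0.13 ± 0.20 (SE), and Gm27833, a microRNA gene within it, had between 5 and 16 counts per library.

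In the wider families, Brwd1, Morc3 and the other listed genes included, edgeR called none at an adjusted p of 0.05 under either scaling, where it called 0.0182% of all tested genes under relative scaling and 0.0121% under spike-in scaling, and DESeq2 called Brwd1 and Morc3 under relative scaling as given above. In the BRWD family with the CUL4-DDB1 ligase, 9 of 17 tested genes had a positive relative log2 fold change (median 0.01), from -0.28 for Phip to 0.45 for Brwd1. The shared scaffold Cul4a had 0.11 ± 0.09 and the adaptor Ddb1 0.12 ± 0.11 (SE). Among 9 tested genes of the MORC family and the HUSH complex, 5 were positive (median 0.03), from -0.14 for Atf7ip, a partner of the methyltransferase SETDB1, to 0.57 for Morc3. Apart from Brwd1, Phip and Morc3, no gene of these 2 lists had an unadjusted edgeR p under 0.05 under relative scaling.

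Of 31 SET-domain lysine methyltransferases, 10 were positive (median -0.05) and none reached an unadjusted p of 0.05. Setd4, the only one of them in the duplicated segment, had the highest log2 fold change of this list and Kmt5c the lowest, at 0.19 ± 0.18 and -0.32 ± 0.22 (SE). Among 24 histone chaperone genes, CAF-1 included, 13 were positive (median 0.01), with Chaf1b highest at 0.52 and Hira, which places histones outside replication, lowest at -0.29 ± 0.18 (SE). None of these 24 reached an unadjusted p of 0.05 either. The 39 DNA synthesis and proliferation genes had a median of 0.00, with 20 positive, from -0.18 for Pola1 to 0.24 for Gins2. Under spike-in scaling the medians of the 5 lists lay between 0.07 and 0.13, near the 0.11 of all tested genes.

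Markers of fibroblasts and of other cell types were examined in each library. The 10 fibroblast markers summed to 22300 to 31800 CPM in WT and 26100 to 31700 CPM in Dp1Tyb libraries. All 8 macrophage markers were lower in Dp1Tyb (median relative log2 fold change -0.61), with 6 at an unadjusted edgeR p under 0.05, against 2.53% of all tested genes on that side, and none called. Ptprc, the leukocyte antigen CD45, was lowest at -0.87 ± 0.12 (SE), with an edgeR p of 3.3e-05 before and 0.0903 after adjustment, and every Dp1Tyb library was below every WT library under both scalings. Under spike-in scaling the median log2 fold change of the 8 macrophage markers was -0.49. There 1 of them had an unadjusted edgeR p under 0.05, against 0.316% of all tested genes on the lower side. The sum of the 8 was 273 to 374 CPM in WT and 152 to 306 CPM in Dp1Tyb. The summed CPM of endothelial markers was 34.0 to 56.4 in WT and 31.8 to 78.9 in Dp1Tyb, that of skeletal muscle markers 35.4 to 71.5 and 27.9 to 127, and that of neural markers 71.9 to 78.5 and 54.6 to 79.6. All 4 tested muscle markers had positive log2 fold changes (median 0.80 under relative and 0.86 under spike-in scaling), with 0 of 4 at an unadjusted edgeR p under 0.05 under relative scaling and 3 of 4 under spike-in scaling, against 0.850% of all tested genes on the higher side there. For Des, Acta1, Myh3 and Ttn the SE was 0.63, 0.83, 0.55 and 0.37 under relative scaling. Under spike-in scaling it was smaller, at 0.35, 0.39, 0.42 and 0.32. Spike-in scaled counts of Des were still widely spread, at 224.6 ± 155 in WT and 386.4 ± 207 in Dp1Tyb (SD), and overlapped. These SEs may thus understate the spread of each gene, and so may the p values under spike-in scaling. The 5 tested neural markers had a median of -0.44 under relative scaling, with Sox2 lowest at -1.10 ± 0.43 (SE; edgeR adjusted p = 0.999). Epithelial markers summed to 20.0 CPM or less in every library and erythroid markers to 7.15 CPM or less. Only 2 of 5 B cell markers were in the table, with a sum of 0.748 CPM or less, and neither was expressed enough to be tested. The part of these cells in the values of the 9 genes was not tested.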

How the data were processed

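Poly(A) RNA of 4 WT and 4 Dp1Tyb MEF cultures with ERCC spike-ins was sequenced as stranded paired ends. The authors trimmed adapters with TrimGalore, mapped reads with TopHat 2.0.12 to GRCm38 plus the spike-ins, discarded multialigning reads and counted reads per gene with htseq-count, whose strand setting and annotation release are not given in the sources used here. The deposited raw counts, whole numbers without normalisation, served for every result. The deposited normalised values and the authors' DESeq2 1.6.3 table of fold changes and p-values were not used.

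Positions and exon lengths came from GENCODE M21, which matched 19318 of the gene IDs and left 175 without a match, and promoters from RefSeq GRCm38.p6, with 9 of 9 genes matched. Genes were filtered with filterByExpr. Relative scaling used TMM factors, and spike-in scaling median-of-ratios factors over the 63 spike-ins of the table. The genotypes were compared with edgeR 4.0.16 (R 4.3.3) and its quasi-likelihood test (two-sided, Benjamini-Hochberg over all tested genes, threshold 0.05). All 9 genes passed the filter. DESeq2 1.42.0 was an alternative. The fits and intervals were also run on simulated counts, and the outcome is not given here. Within-library ratios used a pseudocount of 0.5 counts and an exact permutation test of the absolute difference of means over 70 assignments. Correlations across libraries were tested over all pairings. No batch is named, and all libraries carry the same lane code.

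The 9 genes and all lists were chosen with earlier results of these data known. The text names the 9 genes, the highest and lowest gene of each list, the tested neighbours and overlapping genes of the duplicated genes, and the 3 genes most like each of them; Cul4a, Ddb1, Pcna and Mki67 were added as background after their values were seen. Other alternatives were scaling by spike-in totals, spike-in TMM, upper-quartile or median-of-ratios factors, a pseudocount of 5, a filter of at least 10 counts in every library or none, the replicate number as a block, and leaving out each library. For pairs of same-genotype libraries chi-square per degree of freedom was 10.4 to 95.7, so replicate spread exceeded counting error and no library was a duplicate.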

Additional observations from a re-analysis of the deposited data

Results flagged for a closer look

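In each group of 4 libraries the distance of the highest or lowest value to its nearest neighbour was compared with the group's whole range, for 46 groups of values of the 9 genes and the 5 ratios. Such a comparison marks about 1 group in 20 by chance, and 2 were marked.

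The log2 normalised count of Chaf1b under relative scaling was 7.90 in Dp1Tyb replicate 1, where the other Dp1Tyb libraries had 9.63 to 9.96. This library also had the lowest mean log2 CPM of the 39 DNA synthesis and proliferation genes, 3.93, and with that mean as a covariate the SE of the Chaf1b log2 fold change was 0.14 in place of 0.40.

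The log2 ratio of Brwd1 to Phip was -0.66 in WT replicate 1, where the other WT libraries had -0.38 to -0.35. Phip was at its highest there, with 5587 normalised counts, while Brwd1, with 3535, was the highest of its group by a smaller margin.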

How the results depend on the processing

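The directions of the 4 duplicated genes and of Phip under relative scaling held in every alternative, with log2 fold changes of 0.40 to 0.48 for Brwd1, 0.49 to 0.63 for Morc3, 0.12 to 0.33 for Setd4, 0.33 to 0.82 for Chaf1b and -0.33 to -0.16 for Phip. Only DESeq2 called Brwd1 and Morc3. Under spike-in scaling the duplicated genes stayed positive as well, between 0.11 and 0.88, and no alternative called one. The cause was not tested for the changes that follow. Genes called with relative scaling numbered 3, and 53 in DESeq2, 7 with the replicate block, 33 with the DNA synthesis mean as a covariate, 0 with at least 10 counts in every library and 1 without any single library. With spike-in scaling the 2 calls became 9 with the replicate block, 0 with at least 10 counts in every library, and 2 to 8 without single libraries.

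Among the 2-copy genes, whose fold changes were near 1, leaving out single libraries turned directions. The log2 fold change ran from -0.12 to 0.05 (relative) and -0.07 to 0.29 (spike-in) for Brwd3, from -0.31 to 0.17 and -0.26 to 0.14 for Chaf1a, from -0.11 to 0.01 and -0.11 to 0.19 for Rbbp4, and from -0.37 to 0.04 for Phip under spike-in scaling. Upper-quartile factors gave -0.0016 for Morc2a in place of 0.04.

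Without single libraries the log2 ratio difference ran from 0.44 to 0.54 for Brwd1 to Brwd3, with an exact permutation p of 0.0571 without WT replicate 1, and from 0.46 to 0.75 for Chaf1b to Chaf1a, whose p of 0.0286 came without Dp1Tyb replicate 1. The embryos are described as littermates, but the labels do not say which libraries share a litter, and they name no batch or day. Replicate numbers were therefore not taken to pair the samples. Of the same-numbered correlations, 1 of 4 was near 0: they were 0.37, 0.52, 0.03 and 0.33 after the genotype means were removed. Of the 4 Dp1Tyb libraries, 3 correlated best with the WT library of their own number, which is a hint of pairing from the data and not from the design. With the replicate block the ratio differences of Brwd1 to Brwd3, Brwd1 to Phip and Morc3 to Morc2a, 0.48, 0.72 and 0.52, had an exact sign-flip p of 0.125, the smallest that 4 pairs allow. Chaf1b to Chaf1a, at 0.56, had the same sign-flip p. With the block the relative log2 fold change of Chaf1b was 0.42 ± 0.21 (SE; edgeR adjusted p = 0.571), and no call among the 9 genes changed. For Chaf1b to Rbbp4 the range was 0.27 to 0.86. Counting error alone gives Setd4 a CV of 10.1%, beside a CV of 17.7% between WT and 9.27% between Dp1Tyb libraries, and the spread of RNA per spike-in enters all spike-in scaled values.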
